A study of Mus musculus with 10 samples.

Results

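The Slc25 family of mitochondrial carriers was followed in the left ventricle of mice with a constitutively active Nrf2 transgene (CaNrf2). Its members were the genes of the deposited count table whose symbol is Slc25a followed by a digit and whose counts summed to at least 50 over the 10 libraries. Of 44 such rows among 21222 genes, 40 met this minimum, and 1 of the 40, Slc25a5-ps, is annotated as a pseudogene. The libraries were 3 of CaNrf2-High mice (TGH), 3 of CaNrf2-Low mice (TGL) and 4 of non-transgenic mice (NTG), all male C57BL/6J animals aged 6 months with no treatment named. TG stands for both lines together. The labels give the transgene only by name, so no source used here gives the promoter that drives it, the form of Nrf2 it encodes or the number of founders per line. They also do not say that each library came from a separate animal, and the p-values then measure only the spread between these libraries.

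Slc25 carriers are small proteins of the mitochondrial inner membrane that exchange nucleotides, phosphate, carboxylates, amino acids, coenzymes and ions between the cytosol and the matrix. They are encoded in the nucleus, made in the cytosol and inserted into the inner membrane by the TIM22 complex. In heart muscle the adenine nucleotide carrier exports the ATP that drives contraction, and the carnitine-acylcarnitine carrier Slc25a20 lets long-chain fatty acids reach the matrix for oxidation. Nrf2, encoded by Nfe2l2, is a transcription factor of antioxidant genes that binds antioxidant response elements.

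Libraries held 7076319 to 10896535 counts, and 3 counts, used as the floor, stand for 0.26 to 0.436 CPM (counts scaled to a fixed library total after TMM, edgeR's scaling between libraries). Nfe2l2 had 254, 182 and 244 CPM in TGH, 156, 129 and 182 CPM in TGL, against 164, 145, 88.3 and 122 CPM in NTG. It was higher in TGH than in NTG (log2 fold change 0.80 ± 0.19 SE, edgeR quasi-likelihood test, Benjamini-Hochberg adjusted p = 0.0078), and in TGL the difference from NTG was 0.26 ± 0.19 (adjusted p = 0.456), where TGL overlapped NTG. Along the first principal component, which held 54.5% of the variance, the TGH libraries lay at 42.3 to 52, the TGL libraries at -4.3 to 14.8 with TGL 2 lowest, and the NTG libraries at -44.4 to -37.6. NTG 2 was the control least like the others, with a chi-square per degree of freedom of 18.3 to 19.5 in the pairs that hold it, the highest of all replicate pairs. The summed level of 4 smooth muscle markers was highest in library 2 of each group, at 1250 CPM in TGH 2, 803.5 CPM in TGL 2 and 1006 CPM in NTG 2. Acta2 made up most of this sum, at 899 ± 245 CPM in TGH, 515 ± 208 CPM in TGL and 346 ± 386 CPM in NTG (SD). Myh11, Tagln and Cnn1 averaged at most 42.6 CPM in any group. The summed level of 8 cardiomyocyte markers was 59785 to 64503 CPM in TGH, 70992 to 73073 CPM in TGL, against 74460 to 77078 CPM in NTG. Abundant genes weigh most in this sum. Myh6 averaged 11633 ± 1151 CPM in TGH, 18623 ± 2429 CPM in TGL, against 20895 ± 4882 CPM in NTG (SD). Actc1 went the other way, at 16966 ± 896, 12399 ± 2642 and 11233 ± 3122 CPM. The part of cell composition in the results below was not tested. In bulk tissue, fewer cells of a type and less RNA per cell cannot be told apart.

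The family was dominated by 1 gene. Slc25a4, the adenine nucleotide carrier of heart and skeletal muscle (also known as ANT1), held 52.9, 53.1 and 55.0% of all family counts in TGH, 56.4, 56.5 and 57.1% in TGL and 56.9, 59.3, 57.3 and 58.8% in NTG. Its share was thus below every NTG library in each TGH library. All 40 members together held 0.778 to 0.902% of a library in TGH, 0.809 to 0.854% in TGL and 0.832 to 0.895% in NTG, and these ranges overlapped. Scaled to CPM per kb of annotated exon, the mean level over all libraries declined steeply along the family, in the order Slc25a4, Slc25a11, Slc25a3, Slc25a5, Slc25a34, Slc25a13, Slc25a39, Slc25a12, Slc25a20 and Slc25a46 for the 10 highest. Slc25a4 stood at 1797 ± 123 CPM per kb in TGH, 2011 ± 13.2 CPM per kb in TGL and 2259 ± 91.0 CPM per kb in NTG (SD, n = 3, 3 and 4). The next gene, the oxoglutarate-malate carrier Slc25a11, stood at 302 ± 38.3, 306 ± 11.6 and 301 ± 10.2 CPM per kb in TGH, TGL and NTG. At the other end Slc25a53 had 0.208 ± 0.0444 CPM per kb in TGH, 0.176 ± 0.0362 in TGL and 0.175 ± 0.0527 in NTG. In CPM not scaled to length, 10 members averaged at least 100 CPM, 20 lay between 10 and 100 CPM and 10 below 10 CPM.

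**Figure D1:**
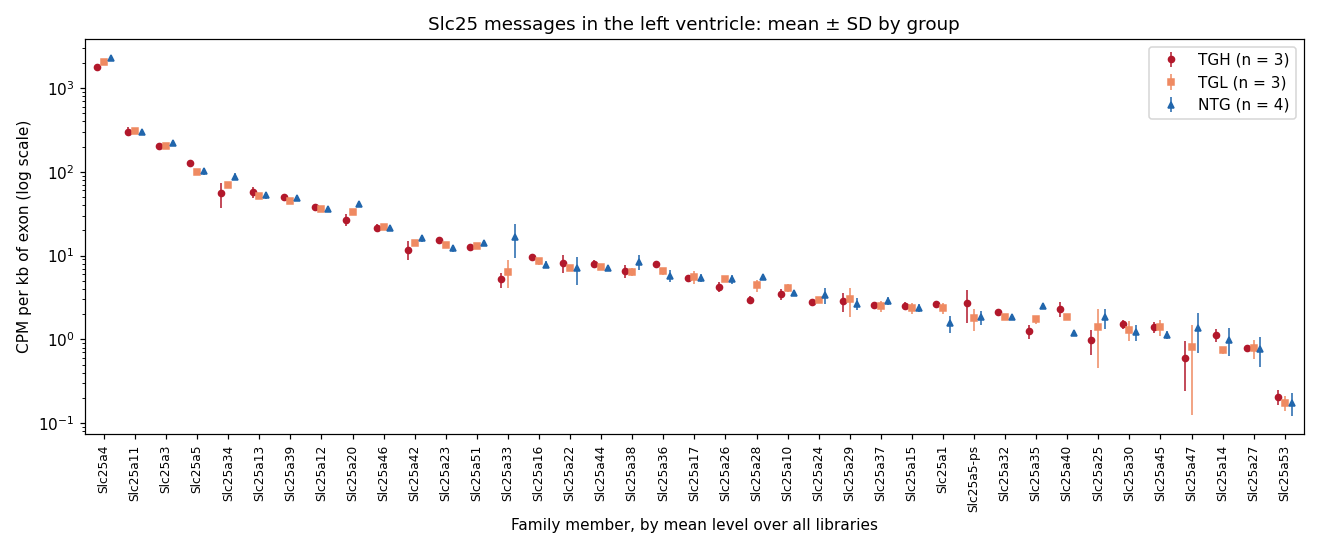
Level of the family members described here in CPM per kb of exon on a log axis, ordered by the mean over all libraries; points are group means and bars the SD between libraries (TGH n = 3, TGL n = 3, NTG n = 4). Slc25a4 lies far above every other member, and the groups are close together for most genes, with Slc25a33, Slc25a28, Slc25a35 and Slc25a40 among the wider gaps.

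The 4 rows under the minimum were Slc25a2 with 5 counts over all libraries, Slc25a43 with 5, Slc25a31 with 21 and Slc25a18 with 22. Just above the minimum were Slc25a53 with 125 and Slc25a14 with 198. All 40 members also passed edgeR's filter on low counts, so no member was left out of a test.

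In TGH against NTG, 14 of the 40 members passed the threshold of adjusted p under 0.05, 6 higher and 8 lower in TGH. That is 35.0% of the members, against 32.4% of all 14511 genes tested, and the shares over all genes were 16.0% higher and 16.4% lower. The members' share was thus close to that over all genes, and their median log2 fold change of 0.038 lay beside -0.015 over all genes tested. The 6 that rose were Slc25a1, Slc25a5, Slc25a16, Slc25a23, Slc25a36 and Slc25a40, and the 8 that fell included Slc25a4, Slc25a20, Slc25a28, Slc25a33, Slc25a34, Slc25a35 and Slc25a42. All TGH libraries lay above all NTG libraries for 7 members and below them for 10, while 38.9% of all genes tested showed such a separation, 19.3% upward and 19.6% downward. Between 10 and 15 members passed when 1 library was left out, with 10 without TGH 1 or without NTG 1.

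TGL against NTG gave 2 members past the threshold, Slc25a40 higher and Slc25a33 lower, which is 5.0% against 6.29% of all genes tested (4.15% higher and 2.14% lower). The TGH and TGL comparisons use the same 4 NTG libraries, so their values are given side by side and are not independent of each other. All TGL libraries lay above all NTG libraries for 1 member and below them for 7, beside 20.2% of all genes (10.8% upward and 9.44% downward). Without TGL 1, without NTG 0 or without NTG 1 no member passed in TGL, and without TGH 2, TGL 2 or NTG 3 there were 3.

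The lines themselves differed past the threshold in 1 member, Slc25a28, which was lower in TGH than in TGL (2.5% of members against 9.64% of all genes, 5.53% higher and 4.11% lower). TGH and TGL libraries did not overlap for 6 members upward and 6 downward, beside 28.4% of all genes (14.5% upward and 13.9% downward). No member passed without TGH 1, TGL 1 or TGL 2, while 3 passed without TGH 0 and 2 without TGH 2 or NTG 2. With NTG 2 and TGL 2 both left out, a setting chosen after seeing the data, Slc25a28 no longer passed and Slc25a5 did. For TG against NTG, the comparison of the authors' deposited table, 7 members by edgeR passed, with Slc25a1 and Slc25a40 higher and Slc25a4, Slc25a20, Slc25a28, Slc25a33 and Slc25a35 lower, or 17.5% of members against 17.4% of all 14265 genes tested (9.34% higher and 8.03% lower). All TG libraries lay above NTG for 1 member and below it for 5, beside 14.1% of all genes (7.68% upward and 6.38% downward). The number of members called in TG was 3 without NTG 0 or NTG 1, 4 without NTG 2 and 10 without TGL 2. The authors' deposited table of the same comparison holds 8 members with an adjusted p under 0.05, 2 higher and 6 lower, the extra one being Slc25a34 at a log2 fold change of -0.48 ± 0.18 and an adjusted p of 0.0435.

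**Figure D2:**
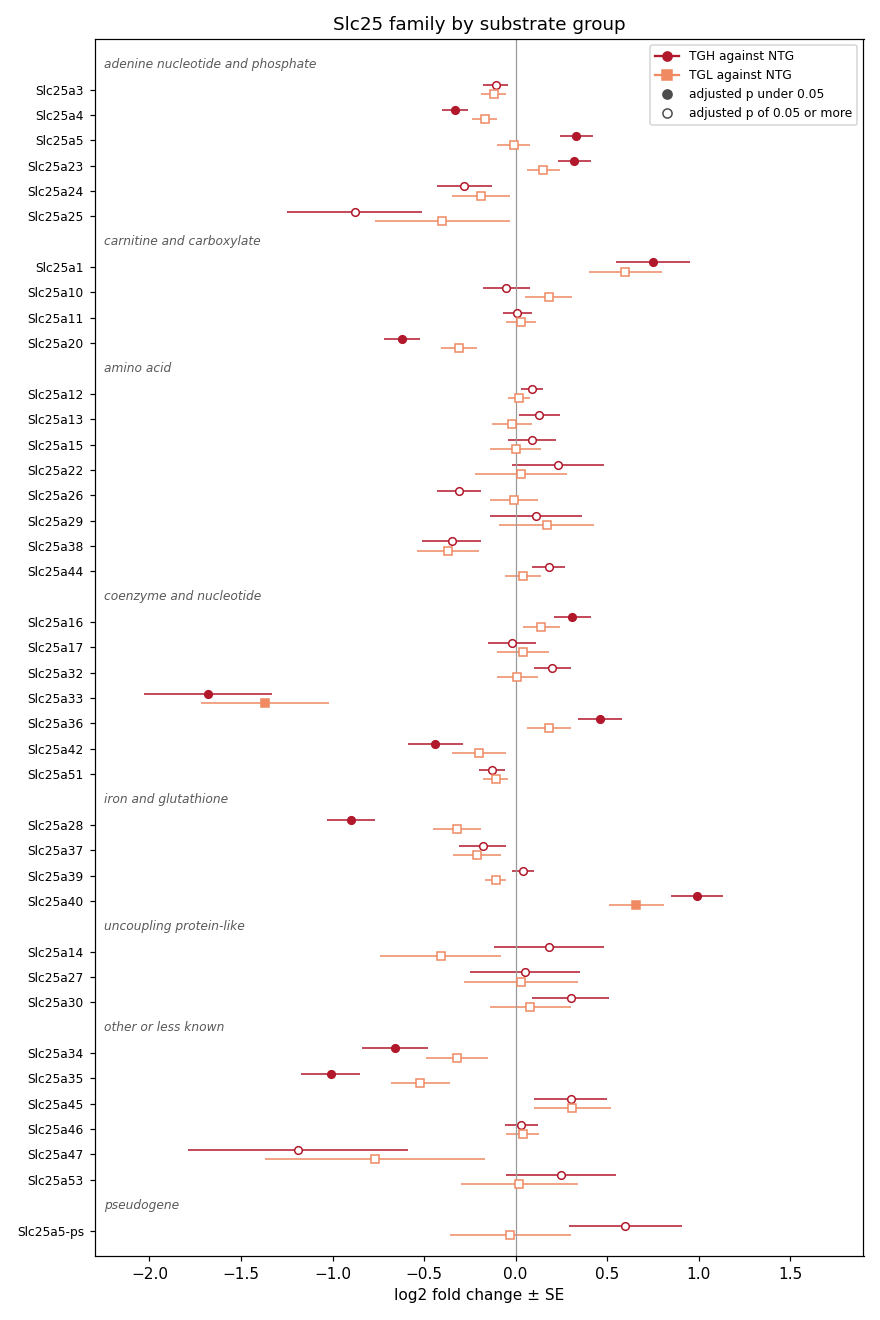
Log2 fold change ± SE of the members described here in TGH against NTG (circles) and TGL against NTG (squares), grouped by the substrates they are known or thought to carry; filled symbols passed the adjusted p threshold of 0.05. Values range from -1.68 for Slc25a33 to 0.99 for Slc25a40 in TGH, and in TGL these same 2 genes are filled.

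Among the 6 carriers of adenine nucleotides and phosphate, 2 rose and 1 fell in TGH against NTG, and none passed in TGL. Over all genes tested, 32.4% were called in TGH and 6.29% in TGL. The antiporters of ADP and ATP moved in opposite directions. Slc25a4 had 3939, 4517 and 4227 CPM in TGH, 4711, 4719 and 4769 CPM in TGL, against 5198, 5538, 5079 and 5451 CPM in NTG. The 3 groups did not overlap: TGH was lowest and NTG highest. Slc25a4 fell by 0.33 ± 0.07 on the log2 scale in TGH (edgeR adjusted p = 0.00387), the TGL difference of -0.17 ± 0.07 did not pass (adjusted p = 0.18), and TG against NTG passed at -0.25 ± 0.08 (adjusted p = 0.0443). The call in TG was lost without any 1 library except TGL 2 (adjusted p = 0.051 to 0.122), and the call in TGH held without each library. TG was fitted as 1 group, so the difference between the lines counts as spread in that comparison.

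Slc25a5 encodes the adenine nucleotide carrier known as ANT2, which is made in many dividing and non-muscle cells. It had 187, 227 and 214 CPM in TGH, 165, 153 and 178 CPM in TGL, against 156, 153, 179.6 and 179 CPM in NTG. The TGH libraries were above all others, and TGL and NTG overlapped. Slc25a5 rose by 0.33 ± 0.09 in TGH against NTG (log2, edgeR adjusted p = 0.0176), a call lost without TGH 1, NTG 0 or NTG 1 (adjusted p = 0.0504 to 0.0886). In TGL the difference from NTG was -0.01 ± 0.09, and TGH against TGL gave 0.34 ± 0.10 (adjusted p = 0.0522). Per kb of exon, Slc25a4 exceeded Slc25a5 by 14.2 ± 0.468 times in TGH, 20.1 ± 1.44 times in TGL and 22.5 ± 2.43 times in NTG (SD between libraries), with the highest TGH ratio of 14.7 below the lowest other ratio of 18.7 in TGL 2. The level of Slc25a5 is uncertain, because 33.8% of the 50-base words of its transcripts also occur in 9 other annotated genes. Of these, the pseudogenes Gm5560 and Gm5529 have rows of their own, which were higher in TGH by 0.59 ± 0.10 (edgeR adjusted p = 0.000782) and 0.42 ± 0.15 (adjusted p = 0.0496). The pseudogene Slc25a5-ps, itself a member, differed by 0.60 ± 0.31 (adjusted p = 0.156). In the same libraries 5 of 6 fibroblast markers and 3 of 6 macrophage markers were called higher in TGH than in NTG. Going the other way, 3 of 6 endothelial markers were called lower. Over all genes tested, 16.0% were called higher and 16.4% lower. Summed fibroblast levels were 1432 to 1483 CPM in TGH, 1189 to 1530 CPM in TGL, against 898 to 1177 CPM in NTG. Summed macrophage levels were 208.5 to 237 CPM in TGH, 142 to 187 CPM in TGL, against 142 to 187 CPM in NTG. Summed endothelial levels were 579 to 706 CPM in TGH, 639 to 864 CPM in TGL, against 787 to 850 CPM in NTG. The part of such cells in the Slc25a5 values was not tested.

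The promoters of these carriers are shown because Nrf2 is known to bind antioxidant response elements, whose core was searched as TGACNNNGC on both strands. Windows are RefSeq's on GRCm38.p6 and run from 250 bases before to 50 bases after each annotated start. Slc25a4 lies at chr8:46211013-46211312 (minus strand) and Slc25a5 at chrX:36795347-36795646 (plus strand). For the ATP-Mg and phosphate carrier Slc25a23, which is described next, the first of its RefSeq windows lies at chr17:57059793-57060092 (minus strand). Capitals mark the matches.
Slc25a4: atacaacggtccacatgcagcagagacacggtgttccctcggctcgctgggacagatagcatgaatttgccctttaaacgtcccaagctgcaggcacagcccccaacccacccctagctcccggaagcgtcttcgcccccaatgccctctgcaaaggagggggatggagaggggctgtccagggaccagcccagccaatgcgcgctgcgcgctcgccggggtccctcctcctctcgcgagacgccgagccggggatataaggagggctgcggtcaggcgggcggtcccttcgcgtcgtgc
Slc25a5: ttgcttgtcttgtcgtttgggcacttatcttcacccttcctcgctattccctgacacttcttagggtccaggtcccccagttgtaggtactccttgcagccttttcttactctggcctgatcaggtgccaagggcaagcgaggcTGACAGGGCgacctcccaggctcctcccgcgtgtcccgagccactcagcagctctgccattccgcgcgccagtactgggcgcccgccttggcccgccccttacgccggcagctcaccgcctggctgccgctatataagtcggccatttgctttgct
Slc25a23: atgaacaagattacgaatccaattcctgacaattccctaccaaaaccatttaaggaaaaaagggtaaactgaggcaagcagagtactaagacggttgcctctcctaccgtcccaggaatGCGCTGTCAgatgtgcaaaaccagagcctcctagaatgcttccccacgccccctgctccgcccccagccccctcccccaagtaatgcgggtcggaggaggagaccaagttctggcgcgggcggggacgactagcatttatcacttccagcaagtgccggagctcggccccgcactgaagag
The match in Slc25a5 begins at position -106 from the start as TGACAGGGC, and that in Slc25a23 at position -131 on the opposite strand, where the window reads GCGCTGTCA. The Slc25a4 window holds no such letters. A match was present in 12.4% of all 32851 RefSeq windows and in at least 1 window of 14.0% of 27025 genes. Of the 30 family genes with a window in that table, 9 had a match, made up of 4 of the 12 that passed in TGH against NTG and 5 of the 18 that did not. A match is only a run of letters, and no binding was measured.

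The other members of this group are the phosphate carrier Slc25a3, which supplies phosphate for ATP synthesis, and the calcium-regulated ATP-Mg and phosphate carriers Slc25a23, Slc25a24 and Slc25a25. Slc25a23 had 85.4, 85.2 and 71.0 CPM in TGH, 74.1, 72.6 and 68.2 CPM in TGL, against 63.8, 62.1, 59.4 and 73.4 CPM in NTG. TGH 2 lay below NTG 3, so the groups overlapped. It rose by 0.32 ± 0.09 in TGH (log2, edgeR adjusted p = 0.0227), a call lost without TGH 0, TGH 1, NTG 0 or NTG 1 (adjusted p = 0.0527 to 0.0973), and differed by 0.15 ± 0.09 in TGL (adjusted p = 0.387). Slc25a3 averaged 1121 ± 107 CPM in TGH, 1113 ± 33.7 CPM in TGL, against 1213 ± 32.4 CPM in NTG (SD), with no call in any comparison. Slc25a25 had the lowest uncalled value of the group, -0.88 ± 0.37 in TGH (adjusted p = 0.0878). Its TGH libraries, at 5.15 to 10.4 CPM, lay below its NTG libraries, at 10.7 to 19.9 CPM, and it passed without TGL 2 although that library is in neither group, since the 3 groups share 1 estimate of the spread.

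**Figure D3:**
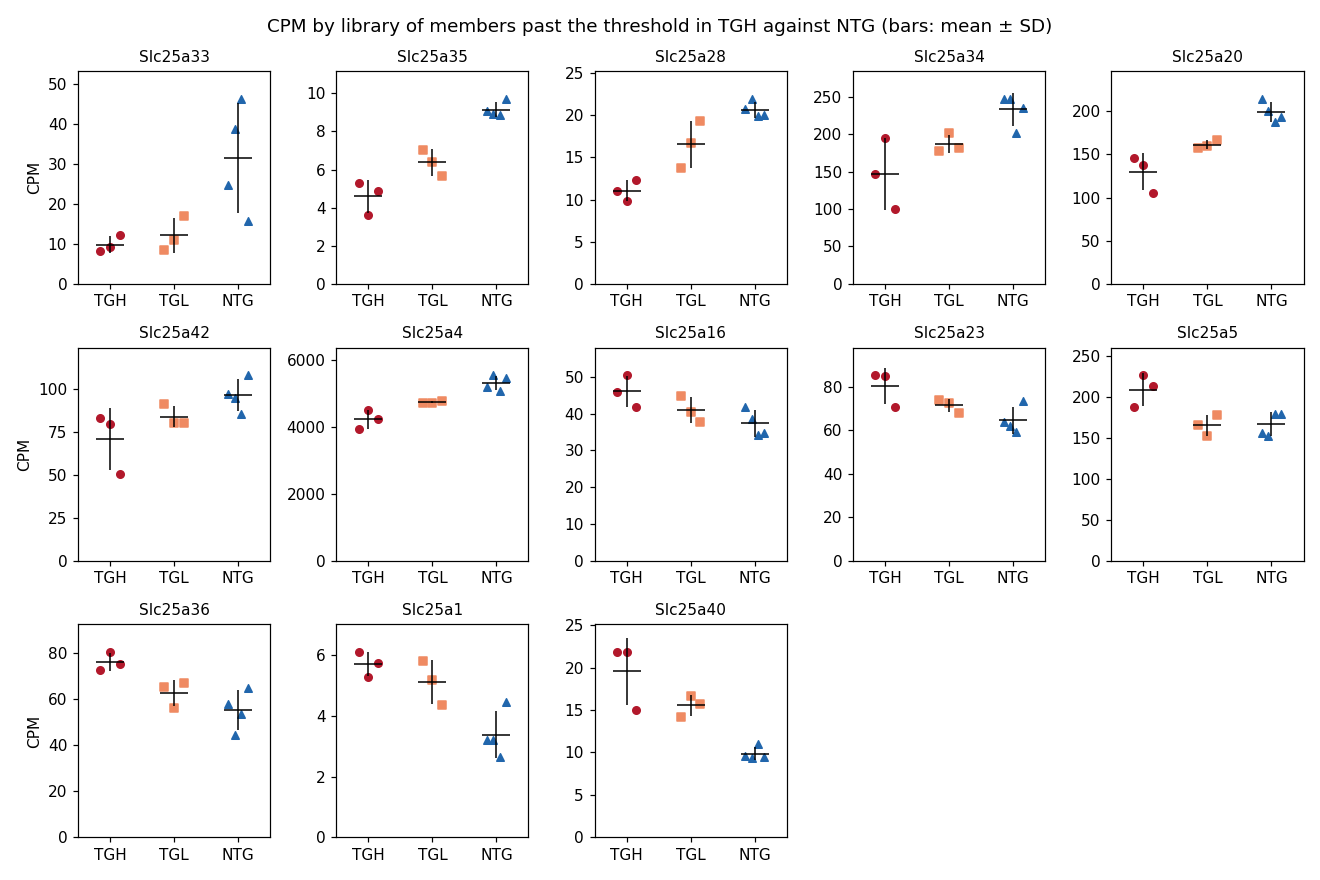
CPM in each library of the members named as past the threshold in TGH against NTG, with group means and SD as bars; each panel starts at 0 and has its own scale. TGL lies between TGH and NTG in its mean for all panels but Slc25a5, and TGH 2 is the lowest TGH library for Slc25a16, Slc25a20, Slc25a23, Slc25a34, Slc25a40 and Slc25a42.

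Of the 4 carriers of carnitine and carboxylates, 1 rose and 1 fell in TGH, beside 32.4% of all genes called in either direction. Slc25a20, the carnitine-acylcarnitine carrier (chr9:108662088-108684641, GRCm38), had 146, 138 and 105 CPM in TGH, 157, 160.1 and 167 CPM in TGL, against 215, 201, 188 and 194 CPM in NTG. The groups did not overlap, with TGH lowest and NTG highest. Slc25a20 fell by 0.62 ± 0.10 in TGH against NTG (log2, edgeR adjusted p = 0.000879), a call that held without each library, and by 0.45 ± 0.11 in TG against NTG (adjusted p = 0.0189), lost without NTG 0 or NTG 1 (adjusted p = 0.0553 to 0.0641). In TGL the difference of -0.31 ± 0.10 did not pass (adjusted p = 0.105), nor did that between the lines, -0.31 ± 0.11 (adjusted p = 0.0984). Other annotated genes share 5.61% of its 50-base words. Of 5 carnitine shuttle enzymes that work with it, only Cpt1b, the muscle carnitine palmitoyltransferase of the outer membrane, passed in TGH, at 29.6 ± 2.32 CPM in TGH, 35.7 ± 0.87 CPM in TGL, against 36.2 ± 2.94 CPM in NTG (log2 fold change -0.29 ± 0.09, edgeR adjusted p = 0.0293). None of the 5 passed in TGL, where 6.29% of all genes tested were called.

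Slc25a1, the citrate carrier that supplies cytosolic acetyl units for lipid synthesis, moved the other way. It had 6.09, 5.28 and 5.73 CPM in TGH, 5.81, 5.17 and 4.36 CPM in TGL, against 3.21, 3.21, 2.63 and 4.46 CPM in NTG. TGH lay above every NTG library, and TGL 2 lay just below NTG 3. Slc25a1 rose by 0.75 ± 0.20 in TGH (log2, edgeR adjusted p = 0.013), a call that held without each library, and by 0.68 ± 0.17 in TG (adjusted p = 0.0204), lost without NTG 0, NTG 1 or NTG 2 (adjusted p = 0.0541 to 0.0655). The TGL value was 0.60 ± 0.20 (adjusted p = 0.113). Slc25a11, by contrast, differed by 0.01 ± 0.08 in TGH (adjusted p = 0.963) and by 0.03 ± 0.08 in TGL (adjusted p = 0.886). The dicarboxylate carrier Slc25a10 did not pass either.

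None of the 8 amino acid carriers passed in the edgeR fit of any of the 4 comparisons, or by DESeq2, and in TGH against NTG 1 of them had an unadjusted p under 0.05. The edgeR shares called over all genes tested were 32.4% in TGH, 6.29% in TGL, 9.64% between the lines and 17.4% in TG. In TGH against NTG their log2 fold changes ran from -0.35 for the glycine carrier Slc25a38 to 0.23 for the glutamate carrier Slc25a22. The aspartate-glutamate carriers of the malate-aspartate shuttle, Slc25a12 (aralar) and Slc25a13 (citrin), are the most abundant of them. Slc25a12 had 284, 284 and 275 CPM in TGH, 269, 263 and 268 CPM in TGL, against 272, 262, 259 and 261 CPM in NTG. TGH lay just above NTG throughout, and the difference of 0.09 ± 0.06 did not pass (edgeR adjusted p = 0.224). Slc25a13 averaged 218 ± 32.9 CPM in TGH, 196 ± 13.2 CPM in TGL, against 199 ± 18.7 CPM in NTG (SD), and the groups overlapped. The ratio of Slc25a12 to Slc25a13 per kb was 0.677 ± 0.0918 in TGH, 0.705 ± 0.0496 in TGL and 0.689 ± 0.0674 in NTG. Of 6 enzymes of the malate-aspartate and glycerol phosphate shuttles, 4 were lower in TGH and 1, Got1, was lower in TGL, where 16.4% and 2.14% of all genes tested were called lower. The malate dehydrogenases Mdh1 (0.13 ± 0.07, edgeR adjusted p = 0.165) and Mdh2 (-0.05 ± 0.07, adjusted p = 0.596) did not pass in TGH. Gpd1, the cytosolic glycerol phosphate dehydrogenase, averaged 31.0 ± 5.07 CPM in TGH, 78.3 ± 11.5 CPM in TGL, against 85.7 ± 14.7 CPM in NTG (log2 fold change -1.47 ± 0.16 in TGH, edgeR adjusted p = 3.59e-05). Got1, the cytosolic aspartate aminotransferase, fell by 0.60 ± 0.08 in TGH (edgeR adjusted p = 0.000232) and by 0.43 ± 0.08 in TGL (adjusted p = 0.01). Gpd2, the glycerol phosphate dehydrogenase of the inner membrane, fell by 0.96 ± 0.14 in TGH (edgeR adjusted p = 0.000406).

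Of the 8 carriers of coenzymes and nucleotides, 2 were called higher and 3 lower in TGH, beside 32.4% of all genes called in either direction. The widest difference of the whole family was in Slc25a33, a pyrimidine nucleotide carrier that brings precursors for mitochondrial DNA and RNA into the matrix. It had 8.20, 9.08 and 12.1 CPM in TGH, 8.43, 11 and 17.0 CPM in TGL, against 24.6, 38.8, 46.3 and 15.7 CPM in NTG. Every TGH library lay below every NTG library, TGL 2 lay above NTG 3, and the NTG libraries spread more than those of either line. Slc25a33 fell by 1.68 ± 0.35 in TGH (log2, edgeR adjusted p = 0.00353), by 1.37 ± 0.35 in TGL (adjusted p = 0.0389) and by 1.52 ± 0.28 in TG (adjusted p = 0.00591). The calls in TGH and TG held without each library. The TGL call was lost without TGH 0, TGH 1, TGL 0, TGL 1, NTG 0, NTG 1 or NTG 2 (adjusted p = 0.0533 to 0.172), and the difference between the lines did not pass (-0.31 ± 0.39, adjusted p = 0.681). Exons of Gm13068 on the opposite strand cover 14.9% of its exon length, and Gm13068 itself had 5 counts in all.

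Its promoter window at chr4:149774218-149774517 (minus strand, GRCm38.p6) is shown because it holds a match in a gene that was lower in both lines, where Slc25a5 and Slc25a23 were higher in TGH.
Slc25a33: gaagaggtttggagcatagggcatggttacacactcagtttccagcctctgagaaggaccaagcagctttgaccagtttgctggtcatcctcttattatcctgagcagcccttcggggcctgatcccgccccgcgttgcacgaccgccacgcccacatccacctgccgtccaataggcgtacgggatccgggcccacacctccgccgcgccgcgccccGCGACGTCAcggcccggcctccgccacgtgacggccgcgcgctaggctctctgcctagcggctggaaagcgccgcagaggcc
The match, in capitals, begins at position -32 from the start and reads GCGACGTCA, so it lies on the opposite strand. Slc25a36, the second pyrimidine nucleotide carrier, moved the other way from Slc25a33 and has no match in its window. It had 72.6, 80.3 and 75.4 CPM in TGH, 65.0, 56.0 and 66.9 CPM in TGL, against 58.0, 44.5, 53.7 and 64.9 CPM in NTG. TGH lay above all other libraries, and TGL overlapped NTG. Slc25a36 rose by 0.46 ± 0.12 in TGH (log2, edgeR adjusted p = 0.0104), a call that held without each library, and its TGL value was 0.18 ± 0.12 (adjusted p = 0.397). The pseudogene Gm13217 shares 6.7% of the 50-base words of Slc25a36 and was also higher in TGH (0.84 ± 0.25, edgeR adjusted p = 0.0251). The ratio of Slc25a33 to Slc25a36 per kb of exon was 0.574, 0.575 and 0.817 in TGH, 0.66, 1.00 and 1.29 in TGL and 2.16, 4.43, 4.38 and 1.23 in NTG. Slc25a36 thus had the higher level per kb in each TGH library, and Slc25a33 had it in each NTG library. This order depends on the exon lengths used, 9594 bases for Slc25a36 and 1887 for Slc25a33, merged over annotated transcripts. In CPM not scaled to length, Slc25a36 was above Slc25a33 in every library of all 3 groups.

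**Figure D4:**
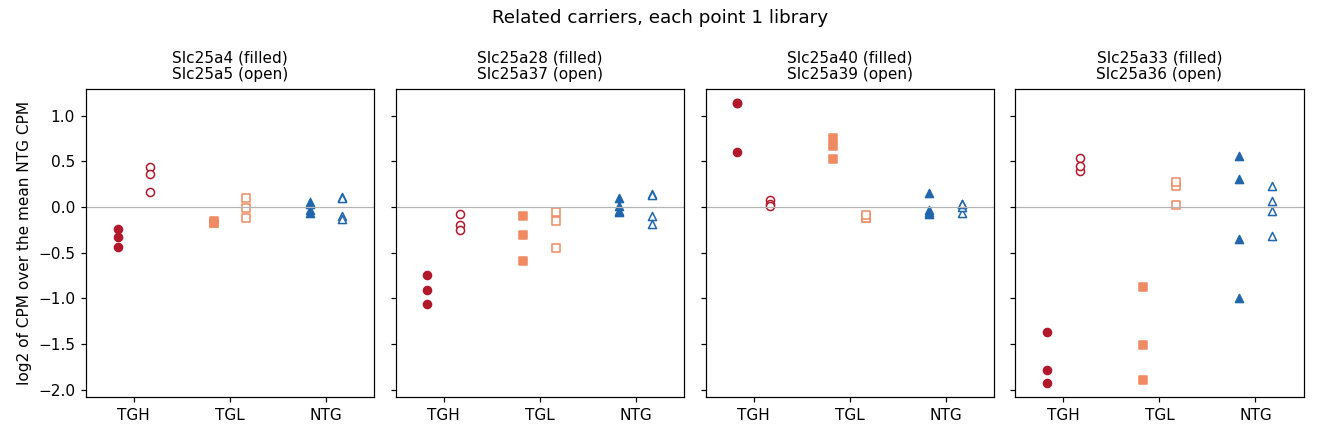
Log2 of CPM in each library over the mean NTG CPM for 4 pairs of related carriers, with the first gene filled and the second open, in TGH, TGL and NTG. Slc25a4 and Slc25a5, and Slc25a33 and Slc25a36, lie on opposite sides of the NTG mean in TGH, while Slc25a37 and Slc25a39 stay near it.

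The coenzyme A carriers of this group went apart. Slc25a42 had 83.0, 79.6 and 50.3 CPM in TGH, 91.0, 80.2 and 80.4 CPM in TGL, against 97.0, 95.0, 85.6 and 108 CPM in NTG, with TGH 2 far below the other libraries. It fell by 0.44 ± 0.15 in TGH (log2, edgeR adjusted p = 0.042), and without TGH 2 the value was -0.24 (adjusted p = 0.0957). That call was also lost without TGH 1, TGL 0, TGL 1, NTG 0, NTG 1 or NTG 3 (adjusted p = 0.051 to 0.0948). Slc25a16, linked to coenzyme A by its likeness to a yeast carrier, had 45.9, 50.4 and 41.9 CPM in TGH, 44.8, 40.3 and 37.8 CPM in TGL, against 41.9, 38.5, 34.2 and 34.7 CPM in NTG. TGH 2 and NTG 0 were almost level. Slc25a16 rose by 0.31 ± 0.10 in TGH (log2, edgeR adjusted p = 0.0357), and the call was lost without TGH 0, TGH 1, NTG 1, NTG 2 or NTG 3 (adjusted p = 0.0606 to 0.158). The NAD carrier Slc25a51 averaged 70.4 ± 3.93 CPM in TGH, 71.4 ± 1.60 CPM in TGL, against 77.2 ± 3.30 CPM in NTG (SD) and did not pass (-0.13 ± 0.07 in TGH, adjusted p = 0.162). Slc25a17, a peroxisomal carrier, and Slc25a32, which takes up folate or flavin, did not pass.

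The iron and glutathione carriers come as 2 related pairs, and 1 gene of each pair moved in TGH. Slc25a28 and Slc25a37 encode the mitoferrins, which bring iron into the matrix for haem and iron-sulfur clusters. Slc25a28 (mitoferrin 2, chr19:43663822-43674881) had 11, 9.86 and 12.3 CPM in TGH, 13.7, 16.7 and 19.3 CPM in TGL, against 20.7, 22.0, 19.9 and 20 CPM in NTG. The 3 groups did not overlap, in the order TGH, TGL and NTG from low to high. Slc25a28 fell by 0.90 ± 0.13 in TGH against NTG (log2, edgeR adjusted p = 0.000309), which held without each library, and by 0.59 ± 0.14 in TGH against TGL (adjusted p = 0.0224). The difference between the lines did not pass without TGH 1, TGL 1 or TGL 2 (adjusted p = 0.0687 to 0.0971). TGL against NTG gave -0.32 ± 0.13 (adjusted p = 0.17). TG against NTG passed at -0.59 ± 0.17 (adjusted p = 0.0329), and this was lost without any 1 library except TGL 1 or TGL 2 (adjusted p = 0.0544 to 0.0924). Here too the difference between the lines counts as spread within TG. Slc25a37 (mitoferrin 1) averaged 15.3 ± 0.996 CPM in TGH, 15 ± 2.11 CPM in TGL, against 17.3 ± 1.95 CPM in NTG (SD), with overlapping groups and no call. Per kb of exon, the ratio of Slc25a28 to Slc25a37 was 1.17 ± 0.201 in TGH, 1.82 ± 0.557 in TGL and 1.93 ± 0.185 in NTG.

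Slc25a39 carries glutathione, the main soluble thiol of the cell, into the matrix, and Slc25a40 is its close relative. Slc25a40 had 21.8, 21.8 and 15 CPM in TGH, 14.2, 16.7 and 15.7 CPM in TGL, against 9.63, 9.33, 11 and 9.50 CPM in NTG. Every library of both lines lay above every NTG library, and TGH 2 lay within the TGL range. Slc25a40 rose by 0.99 ± 0.14 in TGH (log2, 1.98-fold, edgeR adjusted p = 0.000317), by 0.66 ± 0.15 in TGL (adjusted p = 0.0224) and by 0.84 ± 0.15 in TG (adjusted p = 0.00442). The TGH and TG calls held without each library, and the TGL call was lost without TGL 1, NTG 0 or NTG 1 (adjusted p = 0.0614 to 0.1). The difference between the lines, 0.33 ± 0.15, did not pass (adjusted p = 0.206). The gene Gm5066 shares 3.27% of the 50-base words of Slc25a40. Slc25a39 had 142, 137 and 135 CPM in TGH, 123, 123 and 126 CPM in TGL, against 137, 128, 134 and 137 CPM in NTG. It did not pass in TGH (0.04 ± 0.06, edgeR adjusted p = 0.592) or in TGL (-0.11 ± 0.06, adjusted p = 0.309), though its TGL libraries lay below the others. Per kb of exon, Slc25a40 stood at 0.0465 ± 0.00856 of Slc25a39 in TGH, 0.0413 ± 0.00325 in TGL and 0.0243 ± 0.00192 in NTG, so that Slc25a39 remained by far the more abundant message.

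The promoter window of Slc25a40 at chr5:8422588-8422887 (plus strand, GRCm38.p6) is shown because this gene passed as higher in both lines.
Slc25a40: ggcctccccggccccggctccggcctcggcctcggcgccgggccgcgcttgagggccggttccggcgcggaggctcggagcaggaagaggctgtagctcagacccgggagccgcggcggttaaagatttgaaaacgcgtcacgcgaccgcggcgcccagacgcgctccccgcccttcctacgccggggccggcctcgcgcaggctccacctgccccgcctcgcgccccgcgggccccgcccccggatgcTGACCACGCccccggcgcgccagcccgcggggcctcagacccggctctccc
Its match, TGACCACGC in capitals, begins at position -1, across the annotated start. The window of Slc25a39 holds none. Among 8 genes of mitochondrial iron and haem handling, 1 rose and 2 fell in TGH. Over all genes tested, 16.0% were called higher and 16.4% lower in TGH. The cysteine desulfurase Nfs1 rose by 0.37 ± 0.07 (edgeR adjusted p = 0.00209), and the transporter Abcb8 fell by 0.30 ± 0.09 (adjusted p = 0.0274). In TGL the scaffold gene Iscu was the 1 that passed, at 0.25 ± 0.06 (edgeR adjusted p = 0.0397), beside 6.29% of all genes tested.

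The 3 relatives of the uncoupling proteins, Slc25a14, Slc25a27 and Slc25a30, were low, and none passed or had an unadjusted p under 0.05 in any of the 4 comparisons. The shares called over all genes tested were 32.4% in TGH, 6.29% in TGL, 9.64% between the lines and 17.4% in TG. Slc25a30 averaged 6.95 ± 0.804 CPM in TGH, 5.98 ± 1.56 CPM in TGL, against 5.64 ± 1.19 CPM in NTG (SD), and Slc25a27 had 3.11 to 3.16 CPM in TGH, 2.18 to 3.64 CPM in TGL, against 1.60 to 4.35 CPM in NTG. Both genes overlapped between the groups.

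Among 6 members whose substrates are less well known, 2 fell in TGH, where 16.4% of all genes tested were called lower. Slc25a34 is the fifth most abundant member per kb. It had 147, 195 and 99.4 CPM in TGH, 178, 201 and 181 CPM in TGL, against 248, 248, 201.5 and 236 CPM in NTG. TGH spread widely, with TGH 2 lowest, and no library of either line reached the NTG range, although TGL 1 came close to NTG 2. Slc25a34 fell by 0.66 ± 0.18 in TGH (log2, edgeR adjusted p = 0.0133). The call held without each library, with -0.44 without TGH 2 (adjusted p = 0.023). In TGL it differed by -0.32 ± 0.17 (adjusted p = 0.308). Its relative Slc25a35 (chr11:68968131-68974365) had 5.27, 3.63 and 4.86 CPM in TGH, 7.05, 6.40 and 5.67 CPM in TGL, against 9.10, 8.91, 8.85 and 9.73 CPM in NTG. The 3 groups did not overlap. Slc25a35 fell by 1.01 ± 0.16 in TGH (log2, edgeR adjusted p = 0.000557) and by 0.75 ± 0.16 in TG (adjusted p = 0.0117), and both calls held without each library, while TGL gave -0.52 ± 0.16 (adjusted p = 0.0736). Exons of Rangrf on the opposite strand cover 31.3% of the exon length of Slc25a35, and without a stated strand for the counting, reads of the pair may be mixed. No gene of the deposited counts bears the symbol Rangrf, so its level cannot be set beside that of Slc25a35. Slc25a46, a carrier-like protein of the outer membrane tied to mitochondrial shape, averaged 117 ± 13.0 CPM in TGH, 117.5 ± 8.91 CPM in TGL, against 114.5 ± 6.50 CPM in NTG (SD) and did not pass (0.03 ± 0.09 in TGH, edgeR adjusted p = 0.816). Slc25a47, best known from liver, was low and spread widely, at 1.05 to 3.03 CPM in TGH, 0.408 to 4.51 CPM in TGL, against 1.79 to 6.22 CPM in NTG.

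Carriers of the same fold that bear other names showed 1 call. Of Ucp2, Ucp3, Mtch1 and Mtch2, only Mtch2, an insertase of the outer membrane, passed in TGH, at 125.5 ± 4.95 CPM in TGH, 143 ± 4.88 CPM in TGL, against 155 ± 4.85 CPM in NTG (log2 fold change -0.30 ± 0.06, edgeR adjusted p = 0.0034). Of 10 genes of the TIM22 import route, Timm22 and Timm8a1 rose in TGH by 0.41 ± 0.11 (edgeR adjusted p = 0.0178) and 0.48 ± 0.17 (adjusted p = 0.048), and the small chaperone Timm8b fell by 0.31 ± 0.07 (adjusted p = 0.00755). None of the 10 passed in TGL, where 6.29% of all genes tested were called. Over all genes tested, 16.0% were called higher and 16.4% lower in TGH. The median log2 fold changes of these lists in TGH were -0.25 and 0.18.

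Of 18 other transport genes of the mitochondrial membranes tested, 6 were called higher and 2 lower in TGH. There, 16.0% of all genes tested were called higher and 16.4% lower. In TGL 1 was called higher, beside 4.15% of all genes tested. Sfxn4, of the sideroflexin family, averaged 18.6 ± 4.07 CPM in TGH, 11.9 ± 0.689 CPM in TGL, against 6.71 ± 1.84 CPM in NTG (SD). It rose by 1.48 ± 0.20 in TGH (log2, edgeR adjusted p = 0.000192) and by 0.82 ± 0.21 in TGL (adjusted p = 0.0408). The outer membrane channel Vdac3 rose by 0.41 ± 0.07 (edgeR adjusted p = 0.00114) and the proton and calcium exchanger Letm1 fell by 0.39 ± 0.08 in TGH (adjusted p = 0.00346). The other calls in TGH included Micu2, Micu3 and Sfxn3, which rose, and the calcium uniporter Mcu, which fell. The list's median was 0.28 in TGH, beside -0.015 over all genes tested.

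The enzymes that meet these carriers in the matrix were mixed. Over all genes tested, 16.0% were called higher and 16.4% lower in TGH, and 4.15% higher and 2.14% lower in TGL. Of 17 citric acid cycle genes, 1 rose and 4 fell in TGH and none passed in TGL. Citrate synthase, Cs, averaged 1411 ± 120 CPM in TGH, 1661 ± 26.5 CPM in TGL, against 1846 ± 92.5 CPM in NTG (log2 fold change -0.39 ± 0.07 in TGH, edgeR adjusted p = 0.00213). Suclg2 fell by 0.31 ± 0.06 (edgeR adjusted p = 0.00264), while Idh2 was the 1 that rose. Of 18 genes of ATP synthase and energy transfer, 3 rose and 6 fell in TGH, and 2 rose in TGL. The ATP synthase inhibitor Atpif1 averaged 312 ± 46.7 CPM in TGH, 197 ± 28.9 CPM in TGL, against 129 ± 13.6 CPM in NTG, a rise of 1.28 ± 0.12 in TGH (log2, edgeR adjusted p = 1.5e-05) and of 0.62 ± 0.12 in TGL (adjusted p = 0.0124). Ppif, cyclophilin D, a regulator of the permeability transition pore, rose by 0.56 ± 0.08 in TGH (edgeR adjusted p = 0.000213) and by 0.41 ± 0.08 in TGL (adjusted p = 0.00755). Atp5h fell by 0.39 ± 0.06 in TGH (edgeR adjusted p = 0.000365).

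Among 10 regulators of mitochondrial biogenesis, 1 rose and 2 fell in TGH and 1 rose in TGL. Over all genes tested, 16.0% were called higher and 16.4% lower in TGH, and 4.15% higher in TGL. Ppargc1a, the coactivator that drives mitochondrial gene programmes, averaged 160.4 ± 53.5 CPM in TGH, 224 ± 159 CPM in TGL, against 604 ± 215 CPM in NTG (SD). It fell by 1.91 ± 0.42 in TGH (log2, edgeR adjusted p = 0.00515), and its TGL value of -1.43 ± 0.41 did not pass (adjusted p = 0.0656). Ppara, the nuclear receptor of fatty acid oxidation genes, fell by 0.93 ± 0.21 in TGH (edgeR adjusted p = 0.00615). Ppargc1b, a relative of Ppargc1a, rose by 0.48 ± 0.15 in TGH (edgeR adjusted p = 0.0319) and by 0.63 ± 0.15 in TGL (adjusted p = 0.031).

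The marker lists set the tissue background for these values. Over all genes tested, 16.0% were called higher and 16.4% lower in TGH, and 4.15% higher and 2.14% lower in TGL. Of 8 cardiomyocyte markers, 1 (Actc1) was higher and 7 lower in TGH, and 1 (Ryr2) was lower in TGL. Of 6 endothelial markers, 3 were lower in TGH and none passed in TGL. Of the 2 atrial markers tested, Nppa and Myl4, both were higher in each line. Summed levels of 4 listed genes were 353 to 423 CPM in TGH, 307 to 938.5 CPM in TGL, against 40.5 to 84.5 CPM in NTG. Nppa made up most of this sum, at 347.6 ± 31.1 CPM in TGH, 514.4 ± 330.5 CPM in TGL and 57.5 ± 20.4 CPM in NTG (SD). The listed atrial genes Myl7 and Sln had too few counts to be tested. Smooth muscle had 1 call of 4, upward, in TGH. Brown adipocyte markers had 1 of 2 tested higher in TGH, Dio2, with summed levels of 25.7 to 32.7 CPM in TGH, 29.3 to 38.0 CPM in TGL, against 25.6 to 33.2 CPM in NTG. No erythroid marker of 5 tested passed, and 5 lymphocyte markers summed to 0.432 to 1.19 CPM in TGH, 0.727 to 1.8 CPM in TGL, against 1.04 to 1.6 CPM in NTG. Their part in the carrier values was not tested.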

How the data were processed

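Left ventricle RNA was sequenced from 3 TGH, 3 TGL and 4 NTG libraries. The submitters' processing notes name bcl2fastq 1.8.4, Trim Galore 0.4.0, Novoalign, SAMtools, DESeq2 1.18.1 and the mm10 build; no source used here gives the read counter, its annotation or its strand setting. The authors deposited 1 table with a raw read count per gene and library, and, per the file headers, their own TG against NTG comparison: a mean normalized signal, log2 fold changes and their errors, a test score and p-values. Of 21222 rows, 1324 carry no gene symbol; all have a gene identifier and were kept.

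The deposited counts were tested with edgeR 4.0.16 (R 4.3.3, limma 3.58.1): filterByExpr, TMM scaling and the quasi-likelihood F test. All 3 groups shared a fit, and TG against NTG was fitted as 2 groups, where differences between the lines count as spread within TG. Benjamini-Hochberg adjustment ran over all genes tested, with a threshold of 0.05, and the script was tested on simulated data. Standard errors are those of the log2 fold change, taken from the F value. Exon lengths, overlaps and shared 50-base words came from GENCODE M21, to which all 40 members matched, and promoter windows from RefSeq on GRCm38.p6. Alternatives were DESeq2 1.42.0, its size factors, other filters, other groups in the fit, the library number as a block (without NTG 3), and leaving out each library. Protein sequences were not used here.

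Text values cover Slc25a4, Slc25a20, every called member, the 2 most abundant members of each role, and the called genes with the smallest adjusted p, up to 3 per list; other genes were named after their values were seen. The members and lists were chosen with earlier results of these data known. Some genes are counted in the totals but not reported here by name or drawn.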

Additional observations from a re-analysis of the deposited data

Results flagged for a closer look

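Slc25a28, mitoferrin 2, was the member for which the lines differed by a test of the difference itself. TGH against TGL gave a log2 fold change of -0.59 ± 0.14 (edgeR adjusted p = 0.0224), with all 3 TGH libraries below all 3 TGL libraries, and -0.46 (adjusted p = 0.0812) without NTG 2 and TGL 2. No NTG library of 40 members stood apart from the other NTG libraries by the gap check used for groups of 4, where chance alone marks about 1 group in 20.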

How the results depend on the processing

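The values followed were those of each named member in TGH against NTG, and in other comparisons only where it was called. Uncalled values of those other comparisons did not enter, so calls gained there were not counted. Over the values followed and all alternatives, 488 kept their direction and their side of the threshold, 66 kept the direction but no longer passed, and 7 changed sign. All 7 were in members that did not pass: in TGH against NTG with 1 library left out, Slc25a11 ran from -0.10 (without TGH 1; -0.01 without NTG 1) to 0.08, Slc25a46 from -0.05 (without TGH 0) to 0.11, and Slc25a27 from -0.16 (without NTG 3; -0.01 without NTG 2) to 0.30, with -0.16 under the replicate block and -0.01 without NTG 2 and TGL 2. Leaving out 1 library at a time gave 10 to 15 called members in TGH against NTG, 0 to 3 in TGL against NTG, 0 to 3 in TGH against TGL and 3 to 10 in TG against NTG. TGH against TGL gave 2 called members with DESeq2's size factors, 2 with DESeq2 and 0 with only these groups in the fit. Whether library numbers pair the samples was not settled. Of 9 same-numbered pairs, 2 had a correlation of deviations over 0.1 (range -0.0525 to 0.335), and 4 of 18 cases correlated best with their own number. Between the lines, same-numbered pairs had 0.15 (TGH 0 and TGL 0), 0.0625 (TGH 1 and TGL 1) and 0.335 (TGH 2 and TGL 2). Differently numbered pairs of the lines ran from -0.26 to 0.152. The fit with the number as a replicate block also left out NTG 3, the only library with that number. It called 14 members in TGH against NTG, 13 of them shared with the fit of all 10 libraries without a block. The amino acid carrier Slc25a22 was gained and Slc25a16 lost. The block fit called 1 member in TGL against NTG, 1 in TGH against TGL and 3 in TG against NTG. Over all genes, calls in TG against NTG numbered 2477, against 1345 with the block and 3727 with 3 groups in the fit. Leaving out NTG 3 with no block gave 1913. The cause was not tested. Counting error limits the lowest members most: 3 counts stand for 0.26 to 0.436 CPM.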
